A study of Homo sapiens with 6 samples.

Results

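The high mobility group genes HMGN1, HMGN2, HMGN3, HMGN4, HMGN5, HMGB1, HMGB2, HMGB3 and HMGA1 were followed in H929 RNA incubated with or without IRE1. HMGN5 was chosen by its log2 fold change in this comparison, among the highest after IRE1, and the other HMGN, HMGB and HMGA genes by family, 9 of the 57905 genes in the count files. All 9 were among the 14398 genes that passed the filter on low counts. H929 (NCI-H929) is an established human multiple myeloma cell line, a malignancy of plasma cells. Its total RNA (5 μg a reaction) was mixed with 2 μg recombinant human IRE1, made of amino acids 467 to 977, and left at 37 °C for 1 h before heating to 95 °C for 5 min to stop the enzyme. Controls went through the same incubation without the enzyme. Each condition had 3 samples, 1 library each, from poly(A) RNA.

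High mobility group proteins are small, abundant proteins that bind chromatin without being histones. HMGN proteins bind the nucleosome core and compete with the linker histone H1, HMGB proteins bend DNA through their HMG boxes and end in an acidic tail, and HMGA1 binds the minor groove of AT-rich DNA through AT hooks. IRE1 is the endoplasmic reticulum stress sensor whose RNase opens XBP1 mRNA for splicing and cuts other mRNAs, mainly at CUGCAG in the loop of a hairpin. After a cut, only the 3′ part keeps the poly(A) tail and is recovered, and a gene's count takes in reads from either side of the cut. Counts in such a library are shares of what was recovered. The reactions held purified RNA without cells, so no mRNA was newly made in them. A higher value is a larger share of the recovered RNA. Better recovery of 1 mRNA and a loss of the rest can therefore not be told apart. Below, rose and fell refer to this share. The reactions started from equal amounts of RNA, so the values say nothing of cell number or RNA per cell.

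The depth on genes was 19615715 to 25678499 counts per library. The 8 plasma cell markers, among them SDC1 and TNFRSF17, were all detected. Among markers of other cell types, MS4A1, CD14, EPCAM, HBB and COL1A1 stayed at 0 to 13 counts in every library, while the T cell gene CD3E had 890 to 1063. BLOC1S1, a known IRE1 substrate, fell by 1.37 on the log2 scale (adjusted p = 1.25e-06), whereas XBP1 changed by -0.09 (adjusted p = 0.143, both from edgeR's quasi-likelihood test). With the trend for transcript length and GC content removed, XBP1 was lower, at -0.18 (adjusted p = 0.00623). IRE1-treated replicate 1 was the library farthest from the controls, with a chi-square per gene of 22.5 to 29.2 against them, compared with 7.96 to 16.7 for the other IRE1-treated libraries. The members' values are therefore also given without it where it moves them.

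Before the counts, 2 sequence features of the mRNAs are shown, the motif of the enzyme and the purine content. The view by purine content was added after the data were seen. The first is the IRE1 motif, which HMGN5 held 3 times (GRCh37, minus strand of chromosome X), in the 5′ UTR at chrX:80377148-80377153, in the coding sequence at chrX:80375310-80375315 and in the 3′ UTR at chrX:80369781-80369786. Hairpin sites in a 3′ UTR are shown for comparison, HMGB3 at chrX:150156918-150156923 and HMGA1 at chr6:34212838-34212843. Capitals mark the motif.
HMGN5, 5′ UTR: acaggucgugCUGCAGuuaguucauu
HMGN5, coding sequence: aaaagaaaggCUGCAGgucaagguga
HMGN5, 3′ UTR: cauucuuguuCUGCAGguugcuuuua
HMGB3, 3′ UTR: ccuguugacuCUGCAGggggcaucca
HMGA1, 3′ UTR: acaccagccgCUGCAGggcucccaug

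CUGCAG (transcript strand only, in the canonical transcript of each gene) was present in 6 of the 9 genes, against 85.3% of the 12182 tested protein-coding genes, at 0.536 sites per kb against 0.806. HMGN1, HMGN4 and HMGB2 had none. A site counted as a hairpin site when a fold of the motif with 15 bases on either side placed it in a loop, 5 to 11 bases long, on a stem of 3 or more pairs. Such a site was present in HMGB3 and HMGA1 alone among the 9, compared with 35.5% of genes, and none of the 3 HMGN5 sites folded this way. With CNGCAG, where N is any base and which includes CUGCAG, 7 of the 9 genes had a site (96.8% of genes) and 3 had one in a hairpin (60.1% of genes). HMGN4 and HMGB2 lacked both motifs. The added hairpin site was in the 5′ UTR of HMGN1 (chr21:40720976-40720981, cugugggucuCAGCAGcucgggcggc). These matches describe the letters and their predicted folds, not cleavage.

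The second feature is the purine content of the coding sequences, which encode proteins rich in lysine, arginine, glutamate and aspartate. HMGN5 is the member with a long, highly acidic C-terminal part, and the HMGB genes encode acidic tails. The longest uninterrupted stretch of A and G in the coding sequence is shown for 4 genes, from chrX:80370200-80370229 (HMGN5), chr13:31035573-31035598 (HMGB1), chr4:174253268-174253293 (HMGB2) and chr21:40717155-40717171 (HMGN1), with A in capitals.
HMGN5: AAAAgAAgAggAAgAAggAAAAgAggAAgA
HMGB1: AAgAAAAAgAAggAAgAggAggAAgA
HMGB2: gAggAggAggAggAggAAgAAgAAgA
HMGN1: AAAAgggAAAAggggAg

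HMGN5 had the highest share of A in its coding sequence of all 12182 tested protein-coding genes, 50.1% against a median of 25.75%. Its purine share, 80.0%, was second to that of PTMS, which encodes parathymosin. The run shown had 30 bases, compared with 26 in HMGB1 and HMGB2, 44 in HMGB3 and 17 to 21 in the others (median of the tested genes, 12). All 9 coding sequences held 63.6 to 80.0% purine, and each was above at least 99.2% of the tested genes. HMGN5 also differed from the other HMGN genes in length, with 846 coding bases against 270 to 390. The coding sequences of HMGN2 and HMGN4, both of 270 bases, were 86.3% identical. HMGN4 has 2 exons, compared with 6 in HMGN2. The HMGB sequences were 71.7 to 76.6% identical. The HMGN5 transcript (2099 nt) held 33.7% GC, a share that only 0.378% of the tested genes were below.

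The 9 genes were expressed over a wide range in the controls. Levels are compared as normalised counts per kb of the canonical transcript (mean ± SD, n = 3). HMGA1, the AT-hook protein, was highest with 10666 ± 481, and HMGB2 followed with 4222 ± 80.2. HMGN3 had 2325 ± 26.7, HMGN1 1814 ± 78.9 and HMGN2 1687 ± 43.8. HMGB3 came next with 646 ± 29.9, then HMGB1 with 604 ± 15.2 and HMGN4 with 508 ± 16.3. HMGN5 was lowest with 143 ± 9.47. In this order HMGN1 and HMGN2 overlapped between libraries, as did HMGB3 and HMGB1, and the other neighbours did not. The levels take no account of sequence also found elsewhere in the genome, where reads without a unique alignment were not counted. Of 76-base windows, 46.2% in HMGN1, 43.9% in HMGN2 and 25.6% in HMGB1 were such, against 0% in HMGN3 and 3.09% in HMGB3. The order among HMGN1, HMGN2 and HMGN3, and between HMGB1 and HMGB3, is therefore uncertain. With the longest annotated transcript as the length, HMGN1 moved to 536 ± 23.3, between HMGB1 and HMGN4, since its longest transcript (4299 nt) retains an intron and the canonical one has 1271 nt. Of the counts on the 9 genes, HMGA1 took 49.7% in the controls and 47.1% after IRE1, and HMGN5 took 0.729% and 1.26%.

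HMGN5 (ENSG00000198157, chrX:80369198-80457412, minus strand) had 292, 286 and 323 normalised counts in control replicates 1, 2 and 3, and 657, 471 and 548 in IRE1-treated replicates 1, 2 and 3. Normalised counts are counts divided by the scaled library size, at the scale of the mean library. Every IRE1-treated library lay above every control. The means were 300 ± 19.9 and 559 ± 93.6 (SD, n = 3), which is 1.86-fold, or 0.89 ± 0.11 (standard error) on the log2 scale. Because HMGN5 was chosen for this value, it is a description and no test is given. The raw counts behind it were 345, 297 and 314 in the controls and 548, 446 and 564 after IRE1. The spread was wider after IRE1, with a coefficient of variation of 16.7% against 6.62%.

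Among the 10302 genes with a mean of at least 100 normalised counts, HMGN5 had the fourth highest log2 fold change. Among all 14398 tested genes, without that minimum, its rank was 39. Above it among the 10302 were ENSG00000258486 (1.16), RN7SL2 (1.09, with overlapping groups) and RN7SK (1.03). RN7SK reached the minimum of 100 only through its IRE1-treated libraries, with 74.3 to 81.3 normalised counts in the controls. Just below were HYPK (0.81) and the pseudogene RPS27AP16 (0.75, overlapping groups). Without IRE1-treated replicate 1 its change was 0.77, and without replicate 2 it was 1.00, the lowest and highest values over all 17 alternatives. With the trend for transcript length and GC content removed it was 0.83 by the longest transcript and 0.86 by the canonical one.

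Of the remaining HMGN genes, HMGN1 and HMGN3 passed the test and HMGN2 and HMGN4 did not, and the difference between genes was not tested. HMGN3 (ENSG00000118418, chr6:79910962-79944406, minus strand), a nucleosome binder like the others, had 2256, 2219 and 2207 normalised counts in the controls and 3048, 2813 and 2691 after IRE1. The groups did not overlap, and HMGN3 rose by 0.35 ± 0.05 (log2, standard error; adjusted p = 3.73e-04, edgeR). It passed the threshold under all 17 alternatives (0.31 without IRE1-treated replicate 1), although its size fell to 0.20 and 0.19 with the length trend removed. Its exons share 144 bases with HMGN3-AS1 on the opposite strand, which had 5 to 13 counts per library, and whether the counting used strand is not given in the sources used here.

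HMGN1 (ENSG00000205581, chr21:40714241-40721573, minus strand) had 2386, 2193 and 2339 normalised counts in the controls against 2978, 2573 and 2632 after IRE1. Again no IRE1-treated library reached down to the controls, and the gene rose by 0.24 ± 0.06 (adjusted p = 0.00885, edgeR). The call was lost without control replicate 2 (0.21, adjusted p = 0.0707) and with the trend of canonical transcripts removed (0.10, adjusted p = 0.248). Without IRE1-treated replicate 1 it was 0.18 (adjusted p = 0.00788). By its longest transcript the trend removal gave 0.34 (adjusted p = 0.00426).

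HMGN2 (ENSG00000198830, chr1:26798931-26803133, plus strand) and HMGN4 (ENSG00000182952, chr6:26538594-26547161, plus strand), which share most of their coding sequence, did not pass the test with all 6 libraries. HMGN2 had 3371, 3236 and 3214 normalised counts in the controls and 3730, 3528 and 3207 after IRE1, a log2 difference of 0.09 (adjusted p = 0.268, edgeR). Leaving out IRE1-treated replicate 1 gave 0.042 (adjusted p = 0.588), and leaving out replicate 3 gave 0.15 and a call (adjusted p = 0.0274). HMGN4 had 1022, 973 and 964 against 972, 1067 and 1041, a difference of 0.06 (adjusted p = 0.530, edgeR). Both sets of groups overlapped. The summed level of the 5 HMGN genes was 9094 ± 213 in the controls and 10652 ± 656 after IRE1, or 10286 without IRE1-treated replicate 1.

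Of the HMGB genes, HMGB3 (ENSG00000029993, chrX:150148982-150159244, plus strand), the family member known from haematopoietic progenitors, had 2363, 2279 and 2155 normalised counts in the controls and 3136, 2485 and 2484 after IRE1. It rose by 0.25 ± 0.08 (adjusted p = 0.0259, edgeR), and the groups did not overlap. Replicate 1 stood apart in the IRE1 group, and without it the rise was 0.13 (adjusted p = 0.0443). The call was lost with library size as the only scaling (0.17, adjusted p = 0.0893) and without control replicate 1, 2 or 3 (0.28, 0.26 and 0.22, with adjusted p = 0.0567, 0.0815 and 0.116).

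HMGB2 (ENSG00000164104, chr4:174252527-174255583, minus strand), a DNA bender of proliferating cells, had 6042, 6215 and 5996 normalised counts in the controls and 7366, 6482 and 6413 after IRE1. The groups did not overlap, yet the difference of 0.15 missed the threshold (adjusted p = 0.0584, edgeR). DESeq2 gave 0.15 with an adjusted p of 0.0442. Without IRE1-treated replicate 1 the difference was 0.09 (adjusted p = 0.123), and without replicate 3 it was 0.19 (adjusted p = 0.00981).

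HMGB1 (ENSG00000189403, chr13:31030841-31191734, minus strand), which acts as an alarm signal when released from cells, had 3376, 3294 and 3210 normalised counts in the controls and 3454, 3236 and 3287 after IRE1. These groups overlapped, with a log2 difference of 0.01 (adjusted p = 0.876, edgeR). HMGB1 has the longest canonical transcript of the 9 (5456 nt). With the length trend removed it was higher by 0.17 (adjusted p = 0.0420), and by 0.21 with canonical transcripts (adjusted p = 0.0196). The 3 HMGB genes summed to 11643 ± 245 in the controls and 12781 ± 1018 after IRE1, or 12193 without IRE1-treated replicate 1.

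HMGA1 (ENSG00000137309, chr6:34204650-34214008, plus strand) had 19422, 20886 and 21131 normalised counts in the controls and 22217, 20596 and 19701 after IRE1. The groups overlapped, and the log2 difference was 0.02 (adjusted p = 0.783, edgeR). HMGA1 was the most expressed of the 9 and the gene with the most CNGCAG sites, 6, of which 2 were in a hairpin.

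**Figure D1:**
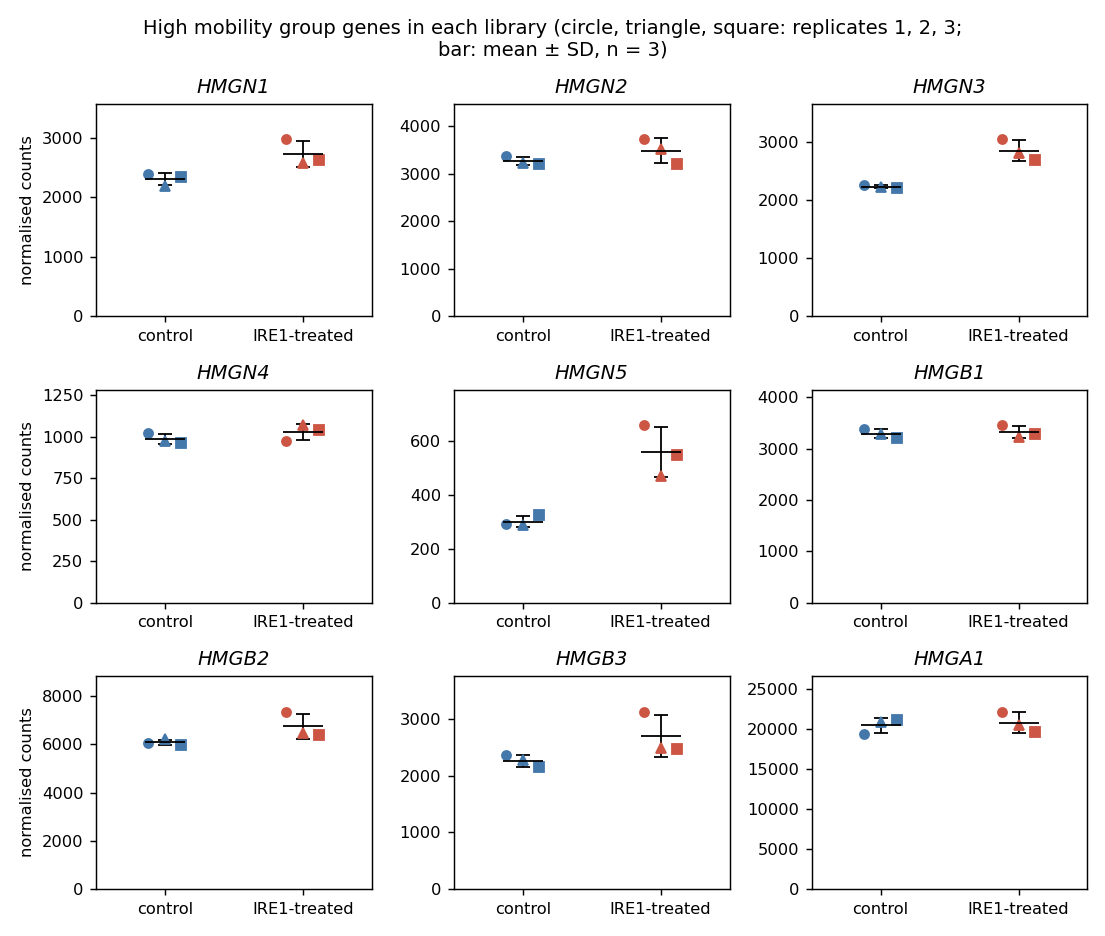
Normalised counts (y axes, linear from 0) of the 9 genes in the control and IRE1-treated libraries, with symbols for replicates and bars for the mean ± SD of 3 libraries. HMGN5 rose from 286 to 323 in the controls to 471 to 657, while HMGN2, HMGN4, HMGB1 and HMGA1 overlapped between the groups.

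Of the 8 genes other than HMGN5, 3 passed the threshold higher (HMGN1, HMGN3 and HMGB3) and 0 lower, and in all 14398 genes 10.3% were called higher and 12.4% lower (22.7% in either direction, edgeR). At an unadjusted p under 0.05 the counts were 4 higher and 0 lower, and the share of all genes at that cut is not given here. DESeq2 also gave 4 and 0, with 1304 of all genes called higher and 1502 lower. The groups did not overlap in 4 of the 8 (19.1% of all genes were higher in this way). Over all genes, 20.0% were lower in this way and 39.1% did not overlap in either direction. The median log2 fold change of the 8 was 0.12, against 0.00 over all genes. With the length trend removed, 4 of 8 were called higher by the longest transcript (8.25% of all genes, with 5.41% called lower) and 3 by the canonical one (6.57%). The 3 were HMGN3, HMGB1 and HMGB3. Without control replicate 2 only HMGN3 remained past the threshold, and without IRE1-treated replicate 3, 5 of the 8 were higher. The calls over all genes moved the same way, with 638 and 2091 genes higher in these 2 fits, compared with 1489 with all 6 libraries.

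The scaling bears on these small values. TMM scaling multiplied the library sizes of the controls by 1.02 to 1.03, but those of IRE1-treated replicate 1 by 0.947, replicate 2 by 0.980 and replicate 3 by 0.996. With library size alone the median of all genes was -0.07, and 20.8% of the called genes were higher, compared with 45.5% after TMM. Under that scaling HMGN4, HMGB1 and HMGA1 turned to -0.016, -0.06 and -0.05, none past the threshold, whereas HMGN5 stayed at 0.82.

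**Figure D2:**
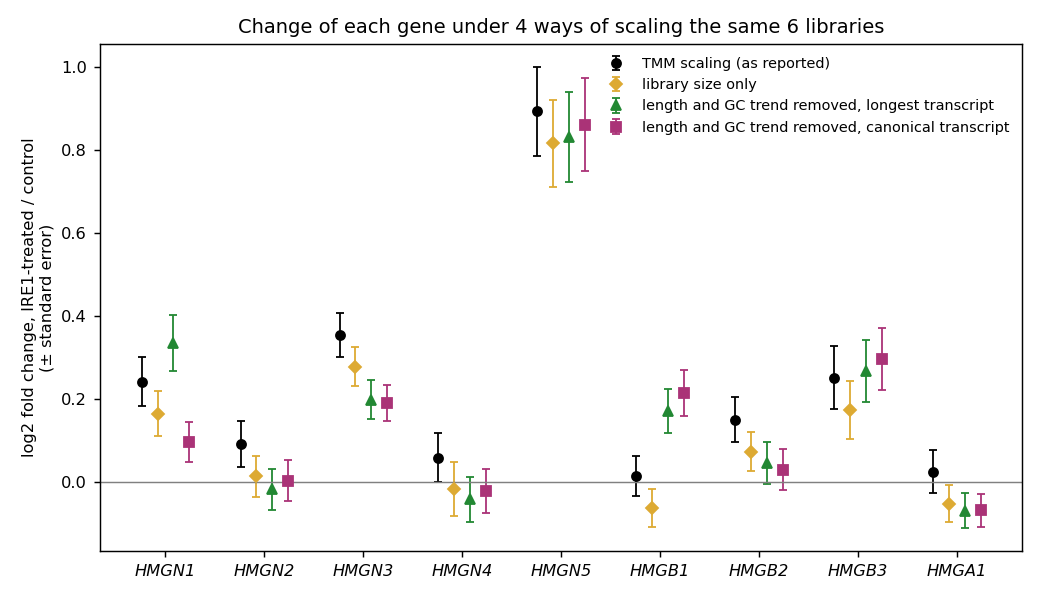
Log2 fold change (IRE1-treated over control, ± standard error of the fit on 6 libraries) of each gene under TMM scaling, library size only, and a fit without the trend for length and GC, by longest or canonical transcript. HMGN5 stayed between 0.82 and 0.89, HMGN1 ranged from 0.10 to 0.34, and HMGN2, HMGN4 and HMGA1 took values on both sides of 0. HMGB1 was below 0 with library size only and at 0.17 and 0.21 with the trend removed.

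Fold changes followed transcript length over all genes, so the members were read beside genes of like length. The median log2 fold change was 0.20 for longest transcripts of up to 1000 nt, 0.16 for 1001 to 2000 nt, 0.08 for 2001 to 3000 nt, -0.02 for 3001 to 5000 nt and -0.17 above 5000 nt. HMGN5 (2099 nt) stood at 0.89 in the class with a median of 0.08. HMGN1, HMGN3, HMGB1 and HMGB3 were also above the median of their class, HMGB1 with 0.01 against -0.17. HMGN2, HMGN4, HMGB2 and HMGA1 were below it, HMGB2 with 0.15 against 0.16. By purine content, the 53 genes with at least 65% A and G in their coding sequence, 6 of them among the 9, had a median of 0.17, and 47 of the 53 were above 0. Without those 6, 41 of 47 genes were above 0. In the largest class, 50 to 55% purine, 2849 of 6224 genes (45.8%) were above 0. PTMS, the gene with more purine than HMGN5, had a log2 fold change of 0.31.

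**Figure D3:**
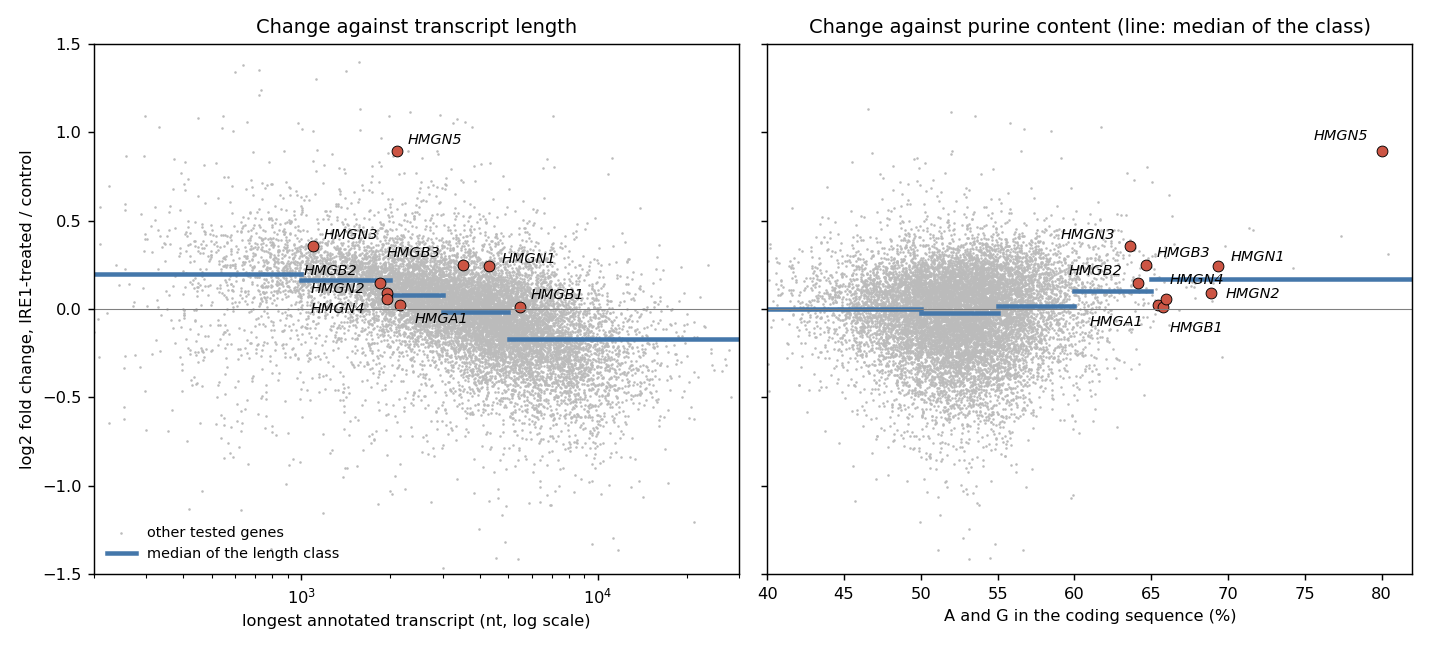
Log2 fold change (IRE1-treated over control) of tested genes against the longest annotated transcript (left, log scale) and against the share of A and G in the coding sequence of protein-coding genes (right), with class medians as lines. Genes outside the axis limits are not drawn. HMGN5, chosen for its high fold change, stands above most of the drawn genes at 2099 nt and at the right edge at 80.0% purine. All 9 genes lie above 60% purine.

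Many retrocopies of these genes lie in the genome, and reads they share cannot be assigned with confidence. The annotation names 157 pseudogenes after the 9 genes, with 38 for HMGN2, 32 for HMGN1, 48 for HMGB1, 29 for HMGB3, 8 for HMGA1, 1 each for HMGN3 and HMGB2, and none for HMGN4 and HMGN5. Of the 156 in the count files 53 had a count and 7 passed the filter. The counts on pseudogenes amounted to 6.43 to 7.21% of those on HMGN2 and 3.66 to 5.23% of those on HMGB1, and to at most 1.28% for the other genes. HMGN2P5 (chr15:30022917-30023189) held most of the HMGN2 copies' counts, with 266, 211 and 213 in the controls and 191, 229 and 203 after IRE1. Adding all copies to their gene left the fold changes of HMGN1, HMGN2, HMGN3, HMGN4 and HMGN5 at 0.24, 0.09, 0.35, 0.06 and 0.89.

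HMGB3P22 (chr5:179106033-179121769) was the single tested copy past the threshold, with 10, 6 and 4 counts in the controls and 12, 19 and 14 after IRE1 (log2 fold change 1.34, adjusted p = 0.0245, edgeR). Its level is low and it is reported as uncertain, since its sequence resembles HMGB3. The other tested copies were HMGN1P38, HMGN2P5, HMGB1P1, HMGB1P5, HMGB1P6 and HMGA1P8, with log2 values from 0.01 to 0.50 and adjusted p from 0.377 to 0.985.

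How much of each mRNA a single read could place was measured with windows of 76 bases, the read length. In HMGN1 46.2% of the windows of the canonical transcript were also found elsewhere in GRCh37, in HMGN2 43.9%, in HMGB1 25.6%, in HMGA1 8.84% and in HMGB3 3.09%. None of the windows of HMGN3, HMGN4, HMGB2 or HMGN5 (2024 windows) was found elsewhere. In the coding sequence alone the shares were 76.9% for HMGN2, 72.8% for HMGB1 and 32% for HMGN1. Read pairs without a unique alignment, kept apart from the genes in the files, made up 10.7 to 11.4% of the counts in the controls and 11.4 to 12.6% after IRE1, and their part in these values was not tested. HMGN5 shares no exon with another annotated gene.

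**Figure D4:**
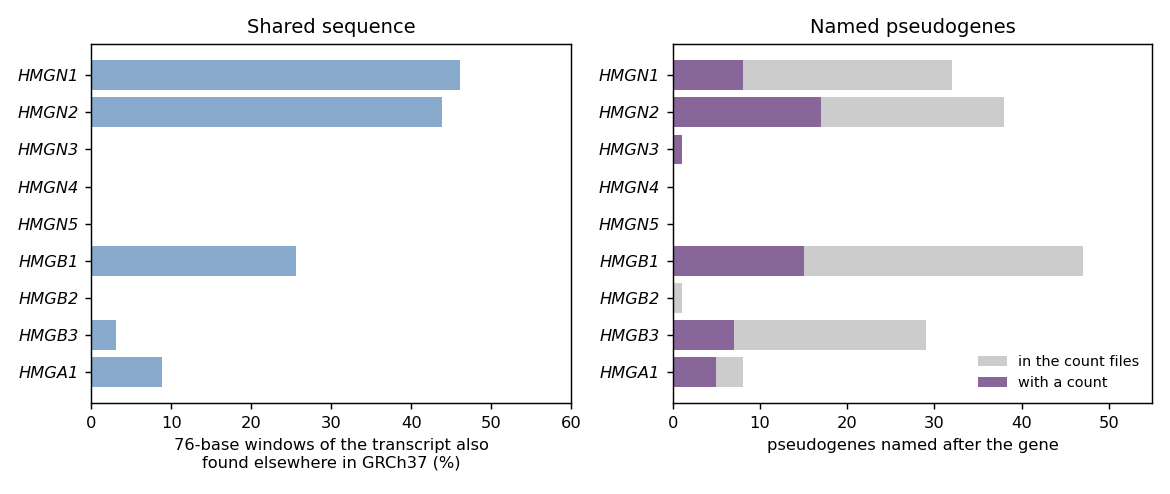
Left, share of 76-base windows of each canonical transcript (x axis, percent) that is also found elsewhere in GRCh37. Right, number of pseudogenes named after each gene, in the count files and with at least 1 count. HMGN5 has neither shared windows nor named pseudogenes, whereas HMGN1 and HMGN2 have shared windows of 46.2 and 43.9%.

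The genes whose deviations from the control mean were most like those of HMGN5 were found by the root mean square difference of log2 values over the 6 libraries, among the same 10302 genes. RN7SK, the small nuclear RNA that holds the elongation factor P-TEFb inactive, was nearest with 0.158. It had 76.1, 74.3 and 81.3 normalised counts in the controls and 219.6, 115.2 and 143.7 after IRE1. Its controls were all under 100, so RN7SK met the minimum mean of 100 only through the IRE1-treated libraries. HYPK, a partner of the N-terminal acetyltransferase NatA, followed with 0.204 and went from 181 to 192 in the controls to 251 to 457. ENSG00000183405 (0.242), the ribosomal protein gene RPL26 (0.246) and ENSG00000272831 (0.247) came next. All 5, like HMGN5, had their highest value in IRE1-treated replicate 1. Their choice by likeness to HMGN5 over these same libraries favours this, so it is not a separate observation. Without that replicate the log2 fold changes of RN7SK and HYPK were 0.75 and 0.51.

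Of 15 histone chaperones and acidic chromatin proteins, 7 rose and 0 fell, with a median of 0.13, where 10.3% of all genes were called higher and 12.4% lower. Without IRE1-treated replicate 1 the counts were again 7 and 0. They included the H1 chaperone NASP (0.31, adjusted p = 0.00315), ANP32B (0.28, adjusted p = 0.00353), prothymosin PTMA (0.23, adjusted p = 0.0134) and nucleophosmin NPM1 (0.23, adjusted p = 0.00501; all edgeR). At an unadjusted p under 0.05 edgeR gave 7 higher and 0 lower, and DESeq2 called 6 higher and 0 lower. With the length trend removed 4 of these 15 were called higher (8.25% of all genes). NASP (0.33, adjusted p = 0.00318) and NPM1 (0.28, adjusted p = 7.16e-04) were among them. ANP32B (0.13, adjusted p = 0.0801) and PTMA (0.10, adjusted p = 0.263, all edgeR) were not.

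HMGB2 belongs to the SET complex, in which APEX1 repairs and NME1 nicks DNA. Of its 5 partners 3 rose and 0 fell (10.3% and 12.4% of all genes), NME1 by 0.41 (adjusted p = 0.00126), APEX1 by 0.23 (adjusted p = 0.00773) and the histone-binding ANP32A by 0.17 (adjusted p = 0.0221, all edgeR). SET itself had 0.09. The counts were also 3 and 0 at an unadjusted p under 0.05, with DESeq2 and without IRE1-treated replicate 1. The median was 0.17, and 2 were called higher with the length trend removed (8.25% of all genes). These were NME1 (0.27, adjusted p = 0.00888) and ANP32A (0.16, adjusted p = 0.0217), while APEX1 was at 0.10 (adjusted p = 0.168, all edgeR).

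The linker histones, with which HMGN proteins compete on nucleosomes, were covered unevenly, since 6 of the 11 had 0 to 8 counts and only 5 were tested. H1-2 was higher by 0.30 (adjusted p = 0.00147) and the H1-like HP1BP3 was lower by -0.23 (adjusted p = 0.00334, edgeR). Neither call was kept with the length trend removed.

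Of 25 other HMG-box or HMG-named genes 21 were tested, 2 were higher and 5 lower (10.3% and 12.4% of all genes), with a median of -0.14. Without IRE1-treated replicate 1 the counts were 1 and 6. HMG20B (0.15, adjusted p = 0.0288) and SSRP1 (0.15, adjusted p = 0.0442), the HMG-box subunit of the histone chaperone FACT, were higher. Among those lower were the chromatin remodelling subunit PBRM1 (-0.39, adjusted p = 3.59e-04), BBX (-0.57, adjusted p = 0.00252), the repressor CIC (-0.32, adjusted p = 3.59e-04) and HMGXB3 (-0.16, adjusted p = 0.0318; all edgeR). The longest transcripts of PBRM1, BBX and CIC have 7991, 9009 and 8299 nt, a class whose median was -0.17. With the length and GC trend removed, PBRM1 (-0.18, adjusted p = 0.0248) and BBX (-0.34, adjusted p = 0.0273, edgeR) were still called lower, and the list had 2 higher and 4 lower. HMGA2, the close relative of HMGA1, had 0 to 6 counts and HMGB4 had 0 counts in every library.

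Of the receptors named for extracellular HMGB1, 4 were tested (AGER, TLR4, HAVCR2 and CXCR4), with 18 to 104 counts. The number past the threshold was 0 with edgeR, also at an unadjusted p under 0.05, and 0 with DESeq2. RAG1 had 2 to 7 counts and RAG2 had 0. These recombinase subunits, with which HMGB1 and HMGB2 work in V(D)J recombination, could not be tested.

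**Figure D5:**
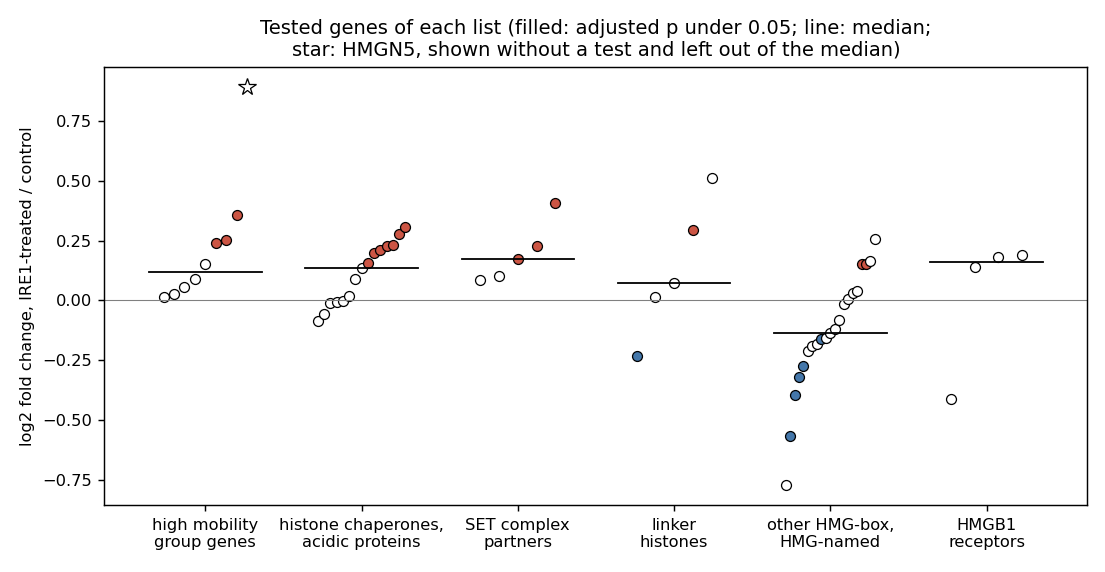
Log2 fold change (IRE1-treated over control) of each tested gene of the 9 high mobility group genes and of the lists beside them, filled where the adjusted p was under 0.05, with the median as a line. HMGN5 (star, no test) lies at 0.89, above every gene of the other lists, a place that follows from its choice by this value. The other HMG-box genes have a median of -0.14.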

How the data were processed

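RNA from H929 was compared between 3 control and 3 IRE1-treated libraries, each sequenced in its own lane, so lane and sample cannot be told apart. The authors trimmed reads with Cutadapt 1.12, aligned them with STAR 2.5.3a to hg19 (GRCh37) and counted them with HTSeq 0.6.1p1 (versions per the submitters' processing notes). They deposited raw gene counts and a table of CPM, normalised by the authors; the same notes list edgeR 3.24.3, with no role given. The summary lines that name no gene (21.4 to 23.2% of counts) were left out.

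The 6 libraries entered 1 fit with edgeR 4.0.16 (R 4.3.3), with its filter on low counts, TMM scaling, the quasi-likelihood test, Benjamini-Hochberg adjustment over 14398 genes and a threshold of 0.05. Labels do not say that replicates came from separate cultures, so p-values measure only the spread between these samples. The alternatives were scaling by library size or upper quartile, DESeq2 1.42.0, leaving out the filter, a minimum of 10 counts in every library, limma 3.58.1 on the authors' CPM (pseudocount 1), the replicate block, a loess trend (span 0.5) with length and GC removed, that trend with the block, pseudogene counts added, and each library left out. The trend with canonical transcripts and the view by purine content were added after the data were seen. Motif sites were folded with ViennaRNA 2.7.2. Gene models came from GENCODE release 44 on GRCh37. The edgeR fit, the hairpin calls and the search for shared windows were tested on simulated data.

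The members and the gene lists were chosen with earlier results of these data known. Named are the 9 genes, their pseudogenes with a mean of at least 10 counts, genes that share exons with them, up to 4 called genes per list with the largest change, the 5 genes most like HMGN5, BLOC1S1, XBP1 and ERN1. Genes outside this rule (neighbours of HMGN5 in rank, further list genes, PTMS) were named after their values were seen. ERN1, which encodes IRE1 and has a longest transcript of 9028 nt, was at -0.28 (adjusted p = 0.00117, edgeR). With the length and GC trend removed it was at -0.09 and not called (adjusted p = 0.118). Some list genes are not reported here.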

Additional observations from a re-analysis of the deposited data

How the results depend on the processing

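Of 153 fold changes of the 9 genes under alternatives, 125 counted as the same, 15 reversed, 7 passed newly and 6 no longer passed. For the 8 tested genes, the same meant an unchanged direction and side of the threshold. HMGN5 has no test, and its 17 values counted as the same because they moved by less than the SD within groups (log2). The reversed ones did not pass the threshold. With library size only, HMGN4, HMGB1 and HMGA1 were at -0.016, -0.063 and -0.052. With the length and GC trend removed, HMGN2, HMGN4 and HMGA1 were at -0.018, -0.042 and -0.069, and with the replicate block added at -0.018, -0.044 and -0.069. With canonical transcripts HMGN4 was at -0.022 and HMGA1 at -0.068. Leaving out 1 library put HMGA1 at -0.021 to 0.069 (below 0 at -0.012 without control replicate 1 and at -0.021 without IRE1-treated replicate 1). It put HMGB1 at -0.012 to 0.033 (below 0 without IRE1-treated replicate 1 and, at -0.0047, without control replicate 3).

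With library size only, 683 genes were called higher, and of the other lists 6 genes higher and 11 lower, compared with 1489, 13 and 6. The trend removal gave 779 genes lower (1781 before) and 8 list genes higher. With the block added it gave 669 lower, 8 list genes higher and 3 lower. With canonical transcripts 946 genes were higher and 586 lower, and 4 list genes higher and 1 lower. Leaving out 1 library gave 1 to 5 members higher, 638 to 2091 genes higher, 972 to 2221 lower, 6 to 14 list genes higher and 5 to 10 lower. The highest counts of genes came without IRE1-treated replicate 3. The causes of these shifts were not tested.

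Replicate numbers are shared between the groups. The deviations of same-numbered libraries had correlations of -0.036, -0.0050 and -0.11. Those of differently numbered libraries ran from -0.060 to 0.094. These values gave no sign that the numbers pair the samples. They cannot exclude pairing, since samples split from the same RNA need not deviate alike. A fit with the replicate block called 3 of the 8 members higher, 1117 genes higher and 1496 lower. The tested pseudogenes, most of them with under 100 counts in every library, had little depth. The 9 members had 297 to 22966 counts per library.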

Other observations

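Across the 12182 tested protein-coding genes, log2 fold changes were set beside the purine share of the coding sequence, a view taken after the values of HMGN5 were seen and given as a description with no test. The median was 0.00 for the 2952 genes under 50% purine, -0.02 for 6224 genes from 50 to 55%, 0.02 for 2523 genes from 55 to 60%, 0.10 for 430 genes from 60 to 65% and 0.17 for the 53 genes at 65% or more. With the length and GC trend of canonical transcripts removed, the highest 2 classes had medians of 0.10 and 0.12, and 46 of the 53 genes were above 0. From 50 to 55% purine, 3272 of 6224 genes were above 0 in that fit. Over all genes the rank correlation with purine share was weak (Spearman's rho 0.054), and with the share of A it was -0.145. Genes with at least 35% A in their coding sequence had a median of -0.04 (618 genes), which became 0.064 with the canonical trend removed. Then 384 of the 618 were above 0, compared with 1858 of 3506 genes from 25 to 30% A. Next to HMGN5 in A share were SREK1IP1 (48.2%), FAM133A (46.4%) and CCDC122 (45.3%), with log2 fold changes of 0.15, 0.05 and 0.73. Next to it in purine share were PTMS (80.4%), RPL41 (77.3%) and PTMA (74.2%), with 0.31, 0.41 and 0.23.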
